A study of Mus musculus with 9 samples.

Results

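The genes of oxygen sensing were followed here in the pressure-overloaded mouse heart: the 3 alpha subunits of the hypoxia-inducible factors (Hif1a, Epas1 and Hif3a), the 3 HIF prolyl hydroxylases (Egln1, Egln2 and Egln3), the recognition subunit Vhl and the target genes Ankrd37 and Ndrg1. Members were all probe sets that the platform annotation pairs with exactly 1 of these 9 symbols. That gave 25 of the 45037 probe sets tested, and 9 of the 18193 genes with a probe set of 1 symbol. Left ventricular RNA of male C57BL/6 mice was hybridised to Affymetrix mouse expression arrays 6 weeks after sham surgery (n = 5 arrays) or after transaortic constriction (TAC, n = 4 arrays), a surgical narrowing of the aorta that loads the ventricle with extra pressure. The series title names the cardiomyocyte kinase HIPK2 and ERK signalling, but the labels give no genetic change and no drug in either group, and give no age. The RNA came from whole ventricle, so the share of a cell type and the RNA level per cell cannot be told apart in any value below.

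Cells sense oxygen through the stability of the HIF alpha proteins. When oxygen is present, the EGLN enzymes hydroxylate prolines of the alpha subunits, the von Hippel-Lindau protein (the product of Vhl) binds the hydroxylated subunits, and a ubiquitin ligase marks them for destruction. When oxygen is short, the alpha subunits persist, pair with ARNT and switch on genes for glycolysis, angiogenesis and iron uptake, and also Egln1 and Egln3, which closes a negative feedback loop. The arrays measure mRNA, so neither the amount of HIF protein nor its hydroxylation was measured.

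Hif1a mRNA rose after TAC, by 1.41-fold at its brightest probe set and 1.47-fold at a dimmer one. Among the hydroxylases the 2 measured changes ran in opposite directions: Egln1 fell by 0.27 on the log2 scale at its dimmer probe set, and Egln3 rose by 0.44 at its brighter one. Values for the other alpha subunits, Epas1 and Hif3a, for Egln2, Vhl, Ankrd37 and Ndrg1 were not past the threshold at any probe set. All values are RMA values on a log2 scale, differences are TAC minus sham, and the test is limma with Benjamini-Hochberg adjustment over all 45037 probe sets, called at an adjusted p below 0.05. By that test 3 of the 25 member probe sets rose and 1 fell (16.0%), against 17.7% of all probe sets, of which 8.87% were higher and 8.86% lower. The sham and TAC values did not overlap at 5 of the 25, against 19.8% of all. At the brightest probe set of each gene 2 of the 9 genes were called, both higher (22.2%), against 22.0% of all 18193 genes. Values did not overlap for 2 of the 9, with TAC above for Hif1a and below for Egln1, against 25.2% of all genes, 12.2% being lower in TAC. The share of these genes that changed was thus near the background share of a ventricle in which many genes changed, and the results below concern the individual genes.

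**Figure D1:**
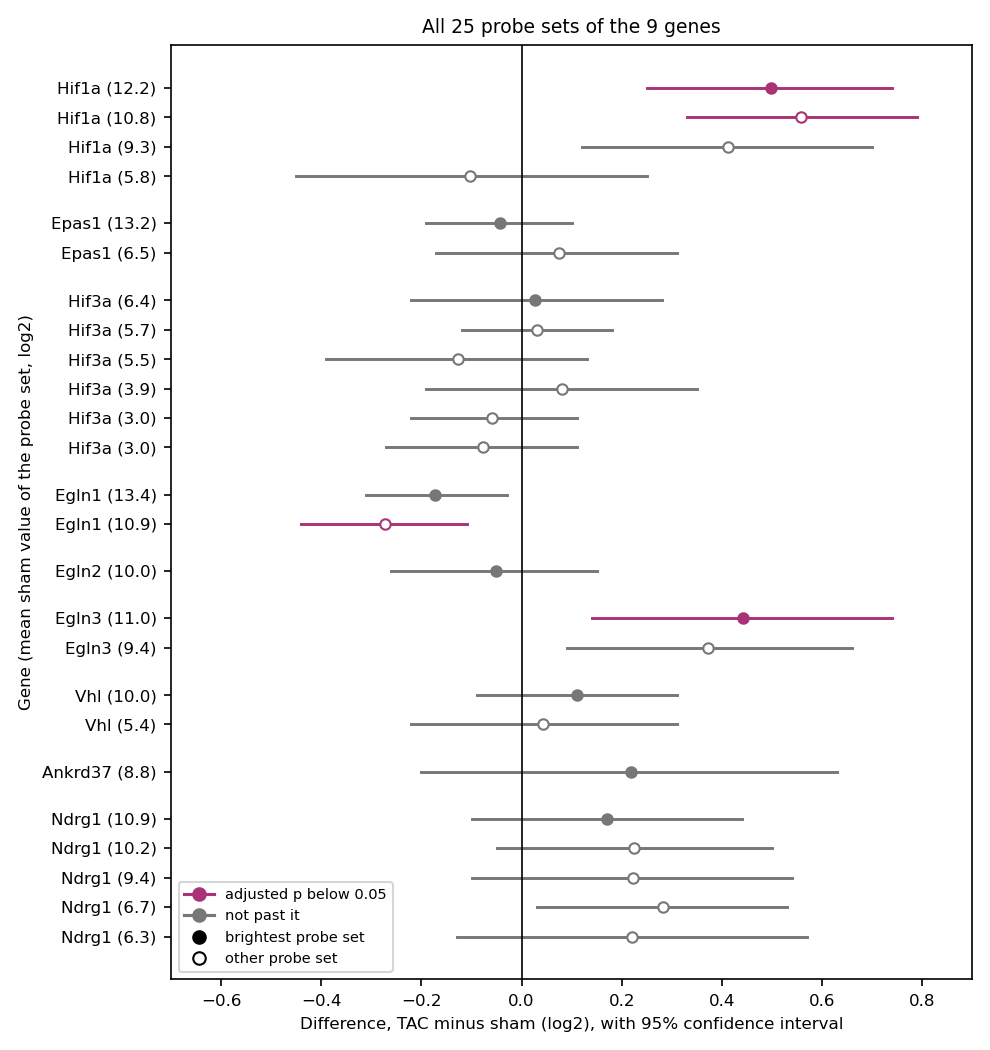
Difference between TAC and sham (x axis, log2) with its 95% confidence interval for all 25 probe sets, grouped by gene, with the mean sham value of each probe set in parentheses. Filled points are the brightest probe set of a gene, and coloured points passed an adjusted p below 0.05: 2 of Hif1a and 1 of Egln3 to the right of 0, and 1 of Egln1 to the left.

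The tissue and the labels were checked on lists of cell type markers. The 10 cardiomyocyte markers averaged 14.27 to 14.31 in sham and 14.23 to 14.24 in TAC, a list difference of -0.05 without overlap. These values lie near the top of the scale, and Myl3 read 14.77 on every array. None of the 10 was called in limma (2 had an unadjusted p below 0.05), which says little at this brightness. Most fibroblast and macrophage markers moved with the groups. Of 10 fibroblast markers 6 rose, with a list mean of 11.03 to 11.34 in sham and 11.77 to 12.06 in TAC. Those 6 were the matrix genes Col1a1, Col1a2, Col3a1, Postn, Lum and Dcn, and Postn rose most, by 3.28. The others, Pdgfra (0.04), Tcf21 (0.13), Dpt (-0.007) and Gsn (-0.005), were not called. Of 10 macrophage markers 8 rose, with a list mean of 9.13 to 9.61 in sham and 10.01 to 10.11 in TAC. Cd68 (0.47) and Cd163, which ran in the opposite direction (-0.395), were not called. Of 14 endothelial markers 1 fell. Of 8 smooth muscle and pericyte markers 4 fell and 1 rose. Over all genes at their brightest probe set 11.3% were called higher and 10.7% lower. The share of endothelial markers called lower was below that background. The adipocyte and erythroid lists, with 3 measured genes each, held no call (1 unadjusted p below 0.05 in each). Pearson correlations across probe sets were 0.983 to 0.997 between arrays of a group, and the lowest involved sham replicate 2.

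The promoters of the genes that changed are shown beside that of Ankrd37, a known HIF target, because HIF binds DNA at a short core that can be searched for in them. Each line gives the 250 bases before the annotated start, 5′ to 3′ on the strand of the gene, from the RefSeq table (GRCm38.p6), with every match to the core letters ACGTG or GCGTG on either strand in capitals. Overlapping matches count as 1 site, and ACGTG preceded by C is also the E-box CACGTG bound by other factors.
Hif1a, chr12:73907617-73907866, plus strand: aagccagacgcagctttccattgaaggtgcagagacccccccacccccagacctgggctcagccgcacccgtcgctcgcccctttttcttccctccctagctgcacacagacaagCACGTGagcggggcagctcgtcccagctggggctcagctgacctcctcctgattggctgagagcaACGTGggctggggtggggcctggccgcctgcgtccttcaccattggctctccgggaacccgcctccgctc
Egln1, chr8:124949255-124949504, minus strand: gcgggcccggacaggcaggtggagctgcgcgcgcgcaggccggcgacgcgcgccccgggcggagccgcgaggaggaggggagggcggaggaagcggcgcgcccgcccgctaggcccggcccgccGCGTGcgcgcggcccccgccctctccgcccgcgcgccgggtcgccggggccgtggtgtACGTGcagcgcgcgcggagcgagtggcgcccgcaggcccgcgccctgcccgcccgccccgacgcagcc
Egln3, chr12:54203875-54204124, minus strand: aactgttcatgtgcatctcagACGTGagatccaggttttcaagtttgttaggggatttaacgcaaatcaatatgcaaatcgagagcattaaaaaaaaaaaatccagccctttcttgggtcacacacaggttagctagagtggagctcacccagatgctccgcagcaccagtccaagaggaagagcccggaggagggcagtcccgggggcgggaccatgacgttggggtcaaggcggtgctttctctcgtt
Ankrd37, chr8:45999851-46000100, minus strand: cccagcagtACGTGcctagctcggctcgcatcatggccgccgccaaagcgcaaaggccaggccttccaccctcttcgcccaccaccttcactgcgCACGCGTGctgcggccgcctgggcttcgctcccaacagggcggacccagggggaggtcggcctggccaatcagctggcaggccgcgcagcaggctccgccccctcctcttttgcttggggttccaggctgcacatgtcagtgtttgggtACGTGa
Hif1a and Egln1 held 2 sites each, Egln3 held 1 and Ankrd37 held 3. One Ankrd37 site lies 6 to 2 bases before the start, and the other sites of these genes lie farther upstream, the Egln3 site at 229 to 225 bases. Of the 7 member genes in the table, with 8 windows, 6 held at least 1 site and the Vhl window held none. Of all 32851 such windows 38.6% held at least 1 site, 13.5% at least 2 and 4.65% at least 3. Counted by gene, 41.5% of all 27025 genes held a site. The core contains a CG dinucleotide, and the windows differ in how many they hold, from 10 for Egln3 and 14 for Hif1a to 19 for Ankrd37 and 51 for Egln1, against a median of 6 over all windows. Genes with and without a call both held sites, and a match is a description of letters, not of binding.

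Hif1a encodes the alpha subunit of HIF-1, which drives the glycolytic arm of the response. At its brightest probe set (1427418_a_at) the sham arrays read 12.13, 12.38, 12.37, 12.15 and 11.89 and the TAC arrays 12.69, 12.73, 12.81 and 12.51. Every TAC array lay above every sham array, and sham replicate 5 was the lowest of all. Sham arrays had a mean of 12.18 ± 0.20 (SD, n = 5) and TAC arrays one of 12.68 ± 0.13 (SD, n = 4), a limma difference of 0.50 (SE 0.11, 95% interval 0.25 to 0.74, adjusted p = 0.0104). The probe set 1416035_at read 10.78, 10.83, 11.02, 10.72 and 10.61 in sham and 11.50, 11.45, 11.31 and 11.14 in TAC. The groups were again separate, and the difference of 0.56 (SE 0.10, 95% interval 0.33 to 0.79) had an adjusted p of 0.00389 in limma. The third, 1448183_a_at, had a sham mean of 9.28 ± 0.27 (SD, n = 5) and a TAC mean of 9.69 ± 0.11 (SD, n = 4), with separate groups and a difference of 0.41 that missed the threshold (adjusted p = 0.0544). The dimmest, 1431981_at, at 5.34 to 6.15 on all arrays, differed by -0.10 with a 95% interval of -0.45 to 0.25 and overlapped between groups. Probe sets with separate groups and TAC above sham made up 10.2% of all. Leaving out any 1 array kept both called Hif1a probe sets past the threshold, with adjusted p up to 0.0402 and 0.0164. The 6 fibroblast and 8 macrophage markers called above moved in the same direction as Hif1a, and their part in its difference was not tested.

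Epas1 encodes HIF-2 alpha, which is abundant in endothelium. Its bright probe set (1435436_at) read 13.16, 13.25, 13.19, 13.16 and 13.13 in sham and 13.11, 13.21, 13.12 and 13.08 in TAC. The groups overlapped, and the limma difference was -0.04 with a 95% interval of -0.19 to 0.10 (adjusted p = 0.716). The other probe set, near 6.5, differed by 0.07 (95% interval -0.17 to 0.31). The Epas1 probe set is among the brightest on the array, and probe sets with a mean above 13 had a median absolute difference of 0.09, against 0.15 over all probe sets, although 16.4% of them were called. The endothelial marker list averaged 9.80 to 10.25 in sham and 9.90 to 10.06 in TAC.

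Hif3a encodes the third alpha subunit, some of whose splice forms oppose the other HIFs. It had 6 probe sets, all dim: the brightest had means of 6.41 ± 0.15 (SD, 5 sham arrays) and 6.44 ± 0.21 (SD, 4 TAC arrays), which is at the 47.9th percentile of brightness, and 2 of them, the dimmest, lay at the 1.89th and 1.66th percentiles. The differences ran from -0.13 to 0.08, and for none of the 6 was the unadjusted limma p below 0.05. The widest of their 95% intervals, that of 1421572_at, ran from -0.19 to 0.35. The splice forms cannot be told apart from these values.

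**Figure D2:**
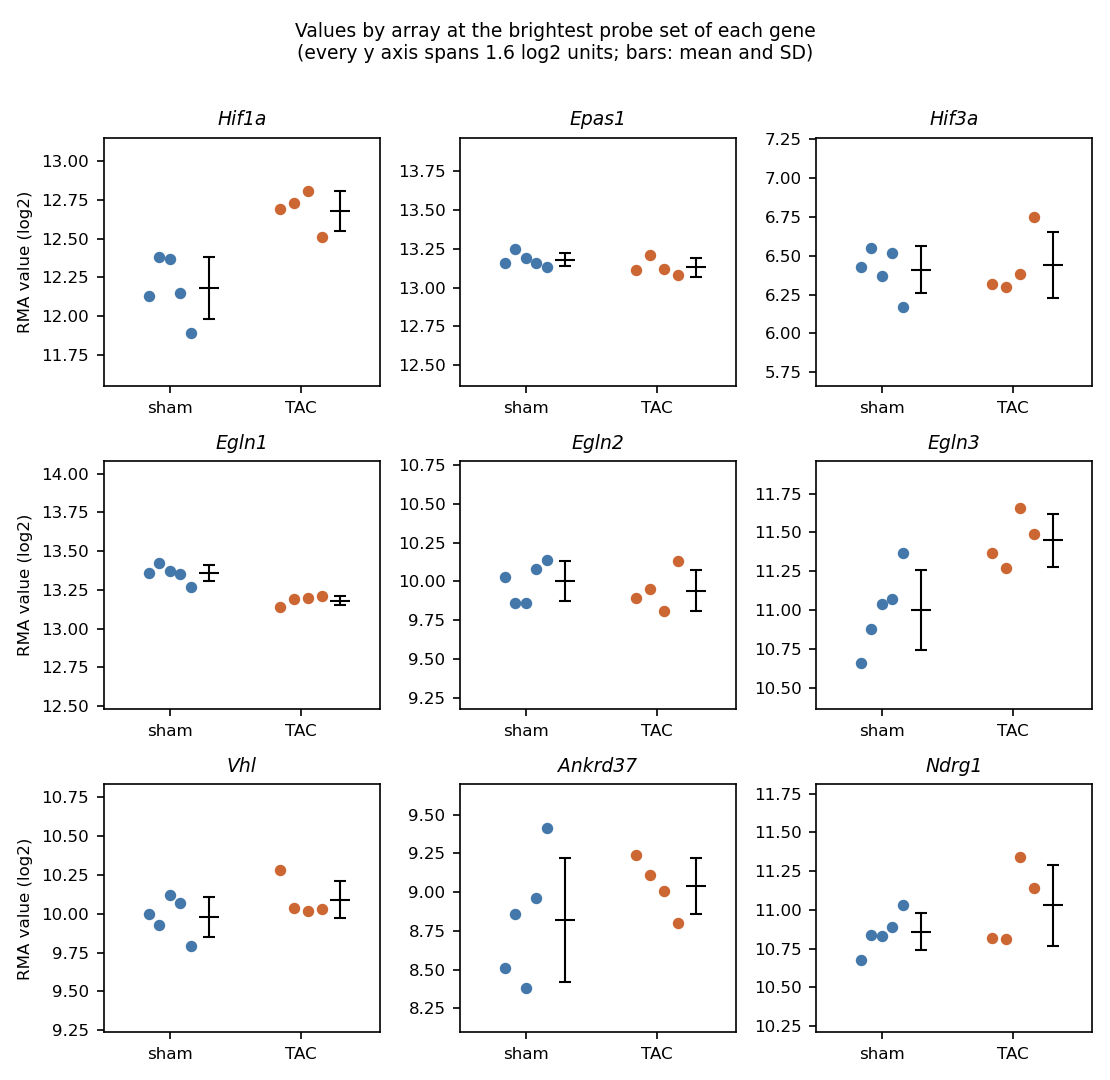
RMA values (y axis, log2) on each sham and TAC array at the brightest probe set of each of the 9 genes, with mean and SD beside the points. Every y axis spans the same number of log2 units, so that the spread can be compared between panels: Hif1a lies higher and Egln1 slightly lower in TAC with no overlap, Egln3 is higher with overlap, and Ankrd37 has the widest sham spread.

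The hydroxylases are the oxygen sensors themselves. Egln1 encodes the main enzyme that hydroxylates HIF-1 alpha at normal oxygen. Its dimmer probe set (1451110_at) read 11.03, 10.86, 10.90, 11.05 and 10.89 in sham and 10.60, 10.68, 10.64 and 10.77 in TAC. All TAC arrays lay below all sham arrays, and the limma difference was -0.27 (SE 0.07, 95% interval -0.44 to -0.11, adjusted p = 0.0268), which is 1.21-fold. Its brightest probe set (1423785_at) read 13.36, 13.42, 13.37, 13.35 and 13.27 in sham and 13.14, 13.19, 13.20 and 13.21 in TAC. Like that of Epas1, this probe set is among those with a mean above 13, whose differences were small. Here too the groups were separate, yet the difference was only -0.17 (95% interval -0.31 to -0.03) and missed the threshold with an adjusted p of 0.0918 in limma. It passed in 5 of the alternative fits, with -0.22 when the probe sets of a gene were averaged (adjusted p = 0.0148). The call of the dimmer probe set was lost without sham replicate 1 or 4 or TAC replicate 1, 2 or 3, with differences of -0.28 to -0.25 and adjusted p of 0.0529 to 0.0840. Probe sets with separate groups and TAC below sham made up 9.67% of all.

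Egln3 encodes a hydroxylase that is itself strongly induced by HIF in many cells and is known for high expression in heart. Its brightest probe set (1418649_at) read 10.66, 10.88, 11.04, 11.07 and 11.37 in sham and 11.37, 11.27, 11.66 and 11.49 in TAC. Sham replicate 5 reached into the TAC range and the other 4 sham arrays lay below it. The limma difference was 0.44 (SE 0.14, 95% interval 0.14 to 0.74, adjusted p = 0.0471), just past the threshold, and the sham mean of 11.00 ± 0.26 (SD, n = 5) stood against 11.45 ± 0.17 (SD, n = 4) in TAC. The second probe set (1418648_at) read 9.10, 9.41, 9.39, 9.39 and 9.65 in sham and 9.53, 9.63, 10.05 and 9.84 in TAC, a difference of 0.37 (95% interval 0.09 to 0.66, adjusted p = 0.0728 in limma). On both probe sets sham replicate 1 was the lowest and sham replicate 5 the highest sham array, and TAC replicate 3 the highest of all. The call of the brighter probe set was lost on leaving out any 1 array other than sham replicate 5: the difference was then 0.36 to 0.50 and the adjusted p 0.0555 to 0.142, the highest without TAC replicate 3. Without sham replicate 5 the difference was 0.54 with an adjusted p of 0.0137. Centring each array on its median gave 0.40 and an adjusted p of 0.0725.

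Egln2 encodes the third hydroxylase. At its probe set sham read 9.86 to 10.14 with a median of 10.03 and TAC 9.81 to 10.13, a difference of -0.05 with a 95% interval of -0.26 to 0.15 (adjusted p = 0.768 in limma). Vhl encodes the subunit that recognises hydroxylated HIF alpha. At its brighter probe set the 4 TAC arrays read 10.28, 10.04, 10.02 and 10.03 and the sham arrays 9.79 to 10.12. TAC replicate 1 stood apart and the rest lay within the sham range, and the difference was 0.11 (95% interval -0.09 to 0.31, adjusted p = 0.466 in limma). The dimmer Vhl probe set differed by 0.04. For both genes a change of the size seen in Hif1a lay outside the 95% interval of the brightest probe set.

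Ankrd37, a small ankyrin-repeat gene used as a marker of HIF activity, read 8.51, 8.86, 8.38, 8.96 and 9.41 in sham and 9.24, 9.11, 9.01 and 8.80 in TAC. Both the lowest and the highest value were sham arrays. Its difference of 0.22 had a 95% interval of -0.20 to 0.63 (adjusted p = 0.489 in limma), which includes both 0 and the size measured for Hif1a. Ndrg1 encodes a stress-response protein that rises in hypoxia and when iron is short. At its brightest probe set (1456174_x_at) it read 10.68, 10.84, 10.83, 10.89 and 11.03 in sham and 10.82, 10.81, 11.34 and 11.14 in TAC. TAC replicates 3 and 4 lay above all sham arrays and TAC replicates 1 and 2 within them. The difference was 0.17 (95% interval -0.10 to 0.44, adjusted p = 0.390 in limma). All 5 Ndrg1 probe sets had a positive difference, from 0.17 to 0.28, and 1 of them had an unadjusted p below 0.05. The suffixes of 3 of these probe sets mark probes shared by transcripts or open to cross-hybridisation, and probe sets of 1 gene are read from the same RNA, so their shared sign is not independent evidence. Of the 3 other measured NDRG family genes Ndrg4 rose by 0.37 at its brightest probe set (SE 0.09, adjusted p = 0.0143 in limma). That call was lost without TAC replicate 3 (adjusted p = 0.0527). Its other probe set (1436188_a_at) rose by 0.53 with separate groups (adjusted p = 0.000993), and the mean of both gave 0.45 (adjusted p = 0.00147). Ndrg2 differed by 0.01 and Ndrg3 by 0.15.

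Some arrays recurred as the lowest or highest of their group at several member probe sets, though not at all probe sets of a gene. Sham replicate 5 held the lowest sham value at the 3 brighter Hif1a probe sets and the highest at both Egln3 probe sets, at Ankrd37 and at the 2 brighter Ndrg1 probe sets. Its deviations from the sham mean were -0.29, -0.18 and -0.45 for Hif1a, 0.37 and 0.26 for Egln3, 0.58 for Ankrd37 and 0.17 and 0.20 for Ndrg1. Sham replicate 1 was the lowest sham array at both Egln3 probe sets and the 3 brighter Ndrg1 probe sets. At the 2 dimmer Ndrg1 probe sets it was instead the highest, with deviations of 0.15 and 0.22. TAC replicate 3 was the highest TAC array at both Egln3 and all 5 Ndrg1 probe sets. Over all genes sham replicate 5 was the highest sham array in 24.6% and the lowest in 21.9%, sham replicate 1 the lowest in 19.2% and TAC replicate 3 the highest TAC array in 20.4%. With 5 and 4 arrays a group is too small for a correlation, and these arrays were picked out after their values were seen.

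**Figure D3:**
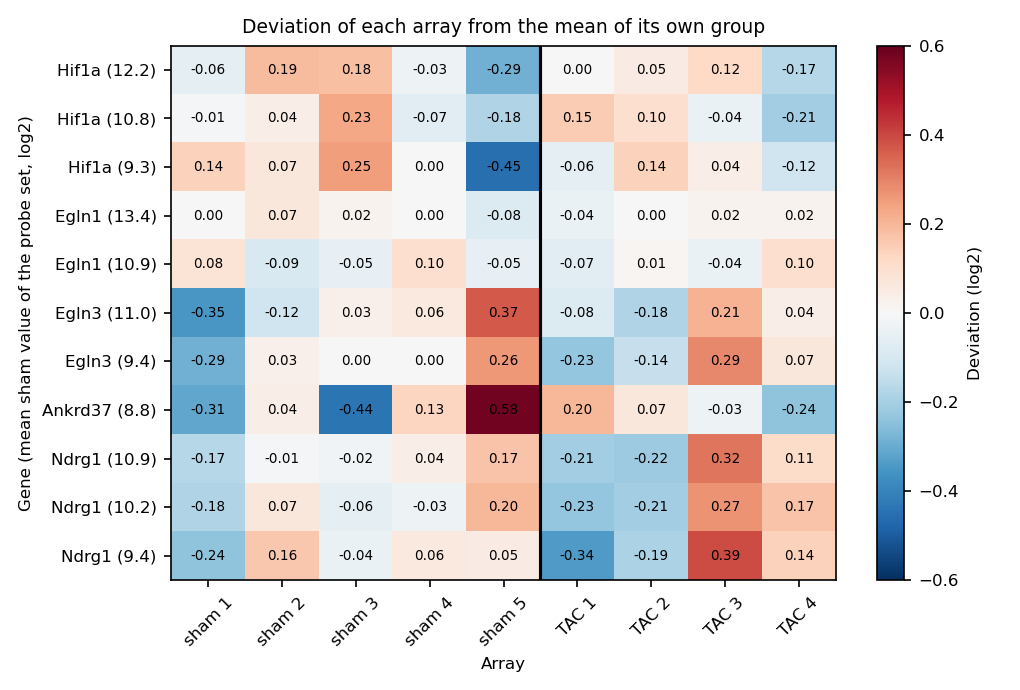
Deviation of each array (columns) from the mean of its own group, in log2 units, at the probe sets of Hif1a, Egln1, Egln3, Ankrd37 and Ndrg1 with a sham mean above 8 (rows). Red is above and blue below the group mean: sham 5 is low for Hif1a and high for Egln3, Ankrd37 and most Ndrg1 probe sets, and TAC 3 is high for Egln3 and Ndrg1.

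Of 23 measured genes for the partners and regulators of the HIF alpha subunits, 2 rose and 2 fell, with a median difference of -0.10. In each direction that is 8.70%, against 11.3% higher and 10.7% lower over all genes at their brightest probe set. Hif1an, which encodes the asparagine hydroxylase that blocks the HIF activation domain, rose by 0.46 (SE 0.14, adjusted p = 0.0459 in limma), with every TAC array (9.12 ± 0.08, SD, n = 4) above every sham array (8.66 ± 0.30, SD, n = 5). Hsp90aa1, whose chaperone protein holds HIF-1 alpha, rose by 0.40 (SE 0.10, adjusted p = 0.0155), and 3 of its 4 other probe sets passed as well, at 0.54 to 0.65. The 2 other Hif1an probe sets, at 0.25 and 0.08, were not past the threshold, and the mean of all 3 was 0.26 (adjusted p = 0.0405). P4htm, a membrane-bound prolyl hydroxylase also linked to HIF, fell by 0.41 (SE 0.11, adjusted p = 0.0302), and Siah1a, a ubiquitin ligase of hydroxylases, fell by 0.34 (SE 0.09, adjusted p = 0.0242). Each of these 4 calls depended on single arrays: that of Hif1an was lost without sham replicate 3 or 4 or any 1 TAC array (adjusted p up to 0.127), that of P4htm without sham replicate 3, 4 or 5 or TAC replicate 1, 2 or 3 (up to 0.0988), that of Siah1a without sham replicate 3 or TAC replicate 1, 2 or 3 (up to 0.0740) and that of Hsp90aa1 without TAC replicate 3 (0.0523). Those 4 calls are at the brightest probe sets. The other P4htm probe set differed by -0.365 (adjusted p = 0.0287 in limma), and the mean of both gave -0.39 (adjusted p = 0.017). For Siah1a, 1423390_at differed by -0.34 (adjusted p = 0.0427) and 1449733_s_at by -0.30 (adjusted p = 0.0602). The mean of the Siah1a probe sets was -0.32 (adjusted p = 0.00157). Chosen for its role, the common beta subunit gene Arnt differed by 0.08 (95% interval -0.09 to 0.25). The ligase genes Elob, Eloc and Cul2 differed by -0.12, -0.10 and -0.08 and were not past the threshold.

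Of 43 measured HIF target genes other than the members, 11 were called higher (25.6%) and 2 lower (4.65%) at their brightest probe set, with a median of 0.15 and a highest difference of 3.27. Over all genes at their brightest probe set 11.3% were higher and 10.7% lower, and the median difference of all named probe sets was 0.00. The target list was written with earlier results of these data known, so its share above that of all genes is not independent evidence. Both of the 2 lower genes, Gys1 and Stc2, had other probe sets that did not share the direction, as given with their values. The collagen crosslinking gene Lox went from 7.94 ± 0.36 (SD, 5 sham arrays) to 11.21 ± 0.30 (SD, 4 TAC arrays), a rise of 3.27 (SE 0.19, adjusted p = 3.56e-06 in limma). The phosphofructokinase gene Pfkp rose by 1.33 (SE 0.12), the lactate exporter gene Slc16a3 by 1.02 (SE 0.11, adjusted p = 0.000153) and the transferrin receptor gene Tfrc by 0.92 (SE 0.11, adjusted p = 0.000239). The size depended on the probe set: averaging all probe sets of a gene gave 2.08 for Lox and 0.56 for Tfrc, both still past the threshold, and a Tfrc probe set (1422967_a_at) differed by 0.15 (adjusted p = 0.646). The other 7 that rose, named after their values were seen, were the carbonic anhydrase gene Car9 (1.23), the transcriptional repressor gene Bhlhe40 (0.94), the glucose transporter gene Slc2a1 (0.79), Ero1a of oxidative protein folding (0.72), the collagen prolyl hydroxylase gene P4ha1 (0.72), Pdk1, which restrains pyruvate entry to mitochondria (0.38), and the hexokinase gene Hk1 (0.27). In all 11 the TAC arrays lay above the sham arrays. The 11 were picked by their calls, so this separation is not independent evidence. Over all genes at their brightest probe set the groups were separate in 25.2%, with TAC below in 12.2%. Car9 was dim, with a mean of 4.57 in sham and 5.81 in TAC, at the 27.5th percentile of brightness. Calls were lost without 1 array for Hk1 (any except sham replicates 1 and 5, adjusted p up to 0.111), Pdk1 (TAC replicate 1, 0.0512) and P4ha1 (TAC replicate 3, 0.0598). Lox and P4ha1 act on collagen, and 6 of 10 fibroblast markers, all matrix genes, rose in the same arrays. This was not tested as a source of their difference.

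At its brightest probe set the glycogen synthase gene Gys1 fell by 0.37 (SE 0.08, adjusted p = 0.0114), but its other probe set (1450196_s_at) differed by 0.05 (adjusted p = 0.861), and the mean of both gave -0.16 and no call (adjusted p = 0.231). Stc2, a secreted glycoprotein gene, differed by -0.51 (SE 0.13, adjusted p = 0.0243) at its brightest probe set. Another Stc2 probe set differed by 0.65 in the opposite direction and also passed (adjusted p = 0.000807), so no direction is given for that gene, and the Stc2 call was lost without sham replicate 4 or TAC replicate 1 (adjusted p up to 0.0556). Several widely used HIF targets were not past the threshold: the angiogenic factor gene Vegfa differed by 0.21 (95% interval 0.01 to 0.42, adjusted p = 0.150), the lactate dehydrogenase gene Ldha by 0.14, the glycolytic gene Pgk1 by 0.16, the mitophagy gene Bnip3 by 0.20, and the vasodilator gene Adm by -0.32 (95% interval -0.74 to 0.10). For Ldha, Pgk1 and Bnip3 every TAC array nonetheless lay above every sham array. Among the other targets not past the threshold this also held for Edn1, Rbpj and Tpi1. For Slc2a3, Vldlr, Higd1a and Mxi1 every TAC array lay below every sham array. Called or not, 23 of the 43 targets had separate groups. Groups were separate, in either direction, for 25.2% of all genes at their brightest probe set. Vegfa, Ldha, Pgk1, Bnip3 and Adm were chosen for their role and not by rule. For Pdk1, probe sets also disagreed, from 0.54 (adjusted p = 0.00730) to -0.16 (adjusted p = 0.463), and their mean of 0.19 was not past the threshold (adjusted p = 0.0732). For Hk1 the mean of its probe sets was 0.47 (adjusted p = 0.0141). The Ero1a probe sets 1419030_at and 1449324_at rose by 0.50 and 0.38 with overlapping groups and missed the threshold (adjusted p = 0.079 and 0.0683 in limma). The mean of the Ero1a probe sets was 0.53 (adjusted p = 0.0107). The other P4ha1 probe set (1426519_at), at 0.41, also overlapped and missed it (adjusted p = 0.0811).

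**Figure D4:**
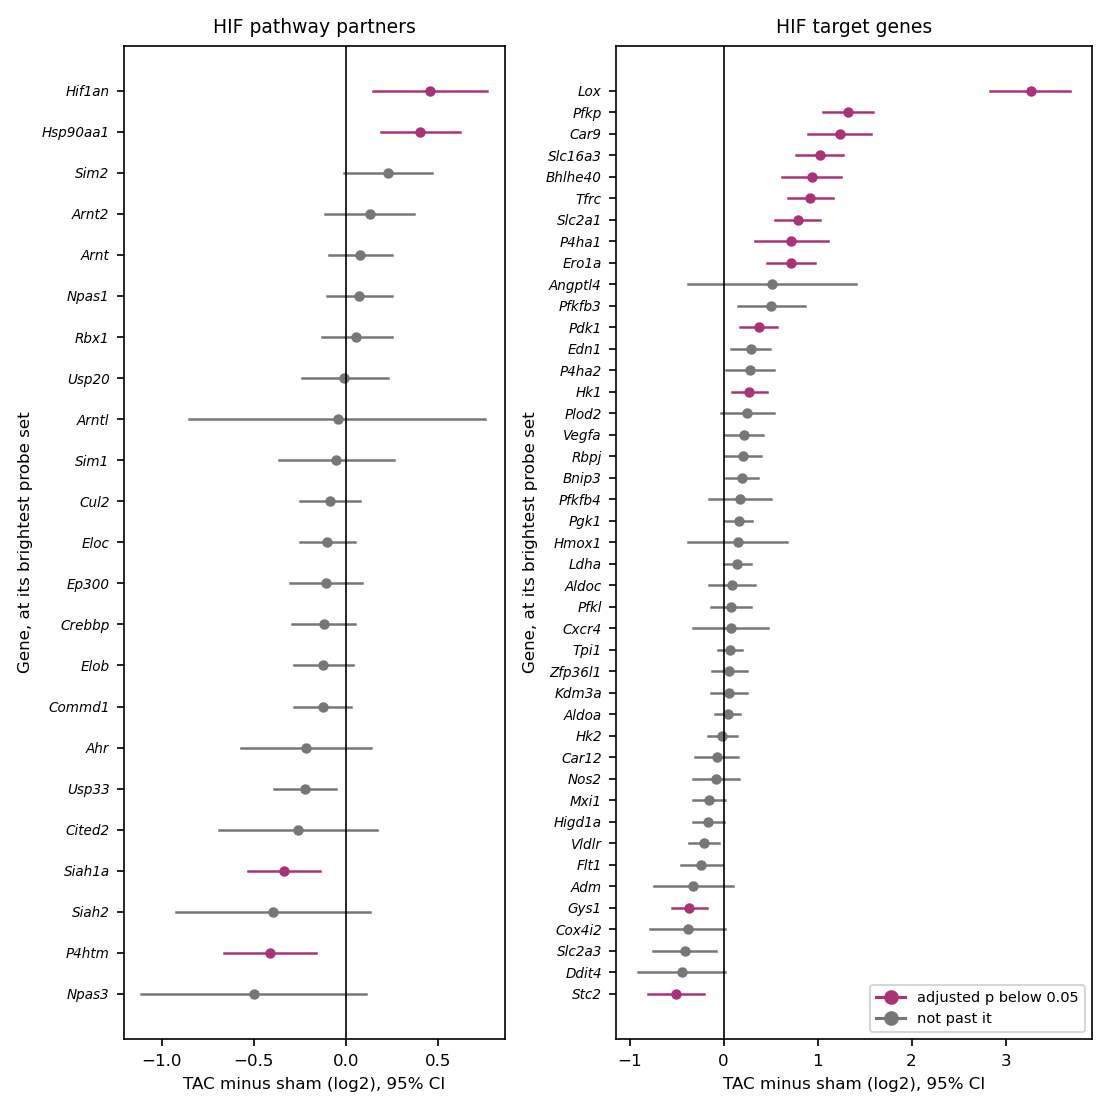
Difference between TAC and sham (x axis, log2) with its 95% confidence interval for 23 partner genes (left) and 43 target genes (right), each at its brightest probe set and ordered by the difference. Coloured genes passed an adjusted p below 0.05: 2 higher and 2 lower on the left, 11 higher and 2 lower on the right, with Lox farthest from 0.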

How the data were processed

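Left ventricular RNA (5 sham and 4 TAC samples) was profiled on 1-colour Affymetrix arrays. The deposited log2 values came from RMA, as named without a version in the submitters' processing notes, and the program the authors ran it in is not stated there. RMA corrects background, forces all arrays to 1 distribution and summarises probes, so a general change of RNA cannot be seen. Depth does not apply, and the number of arrays limits precision. The labels do not say that each array is its own animal, so the p-values reflect only how these samples spread, which may be technical.

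Of 45101 probe sets 64 controls were left out. The annotation gave 1 symbol for 34945, several for 932 and none here for 9160. Gene IDs of all 25 member probe sets matched the same symbols in the RefSeq table. limma 3.58.1 in R 4.3.3 (lmFit, eBayes, no covariate, no filter, two-sided) was fitted to all 45037 probe sets, with 7 residual and 3.63 prior degrees of freedom. Each gene was counted at its brightest probe set (highest mean over the 9 arrays). The steps were tested on simulated data with independent probe sets. Of simulated log2 changes of 0.5, 1.0 and 2.0, 38%, 91% and 100% were recovered. Of 168 calls 8 were on unchanged probe sets. Far fewer probe sets changed there than were called in the real arrays, so these shares do not carry over to them. Python 3.11.15 (numpy 2.4.6, pandas 2.3.3, matplotlib 3.10.9) made the tables and figures. All columns belonged to the series.

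The members and gene lists were chosen with earlier results of these data known. Named were all members and, of each further list, all called genes in a direction where there were at most 5, otherwise the 4 with the smallest p, and where none was called the 2 with the smallest p. A further rule on genes of like pattern needed a called difference of at least 0.5 at a brightest probe set; the largest was 0.499, so it named none. Alternatives were fits over genes (brightest probe set or mean), a brightness filter, array weights, a robust fit with a variance trend, median centring, cyclic loess, a threshold of 0.01 on the adjusted p, and omission of each array in turn.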

Additional observations from a re-analysis of the deposited data

Results flagged for a closer look

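Of 86 groups of values checked (the 25 member probe sets and 18 named genes, each in sham and TAC), 3 held an array far from the others, and chance gives about 1 in 20. TAC replicate 1 read 10.28 at the brighter Vhl probe set, against 10.02 to 10.04 for the other TAC arrays. TAC replicate 4 read 6.75 at the brightest Hif3a probe set, against 6.30 to 6.38 for the rest. Sham replicate 5 read 12.19 for Hsp90aa1, above the other sham arrays at up to 11.96. The difference of Vhl ranged from 0.05 to 0.14 and that of Hif3a from -0.08 to 0.07 on leaving out 1 array.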

How the results depend on the processing

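The 2 called Hif1a probe sets passed in every alternative run, except that the brightest, at 0.50, missed an adjusted p below 0.01 (0.0104); averaging all its probe sets gave 0.34 (adjusted p = 0.0294 in limma). Leaving out 1 array gave differences of 0.43 to 0.56 and 0.51 to 0.63. The 3 higher member probe sets became 5 with a brightness filter (16 tested) or a variance trend, 1 at an adjusted p below 0.01, and 2 to 5 without 1 array (5 without sham replicate 5). The 1 lower became 2 with the filter, the trend or array weights, 0 at an adjusted p below 0.01, and 0 to 1 without 1 array. The 2 higher genes became 1 with median centring, 0 at an adjusted p below 0.01 (2 at an unadjusted p below 0.05) and 1 to 2 without 1 array. No gene was lower in limma (1 at an unadjusted p below 0.05), and 1, Egln1, was with either fit over genes, the filter, the trend or array weights, at -0.17 and, for the mean of probe sets, -0.22; without 1 array it was 0 to 0 genes and -0.19 to -0.15. The dimmer Egln1 probe set ranged from -0.31 to -0.25 without 1 array and, at -0.27, missed an adjusted p below 0.01. Egln3 lost its call at 0.40 with median centring, at 0.44 with the adjusted p below 0.01, and ranged from 0.36 to 0.54 without 1 array.

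The 2 higher partners became 0 at an adjusted p below 0.01 and 0 to 2 without 1 array (0 without TAC replicate 3). The 2 lower became 4 with the mean of probe sets, 0 at an adjusted p below 0.01 and 0 to 2 without 1 array. The 11 higher targets stayed between 9 and 12 without 1 array, and the 2 lower became 1 with the mean of probe sets (neither Gys1, at -0.16, nor Stc2), 4 with the trend or array weights, 0 at an adjusted p below 0.01 and 1 to 3 without 1 array. Stc2 reversed to 0.09 with the mean of its probe sets. Of 608 further alternatives for 38 single differences, 554 stayed on the same side of the threshold, 42 lost a call and 10 gained one. Some of the 554 were differences without a call that changed sign, by no more than the sham SD. Of the rest, 1 was that reversal of Stc2. The other 1 was the brightest Epas1 probe set, whose -0.04 became 0.02 with the mean of its probe sets. The causes were not tested. Median centring moved the median difference of named probe sets to -0.04 and the calls over all probe sets from 3996 higher and 3991 lower to 3462 and 4953. Counts of member probe sets could not be given with 1 value per gene. No paired analysis was possible because the labels carry no replicate numbers. Dim probe sets, such as those of Hif3a, limit what can be seen.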

Other observations

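Among the 43 HIF target genes, TAC replicate 3 was the highest TAC array in 19 and sham replicate 5 the highest sham array in 16, the arrays that also stood highest for Egln3. Over all genes those shares were 20.4% and 24.6%. The median deviation of these targets from the group mean was 0.04 in TAC replicate 3 and 0.03 in sham replicate 5. The arrays were singled out after their values were seen.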
